A study of Mus musculus with 6 samples.

Results

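Expression of 7 genes of zinc handling was followed in RNA-seq of cells sorted from the adult mouse olfactory bulb with and without Sox9. The genes were chosen by their symbols, as 7 of the 24421 symbols listed in every library. The set of genes was drawn up with earlier results of these data known, so that the number of them that changed is a description of the set. They are the metallothioneins Mt1, Mt2 and Mt3, the exporters Slc30a1 and Slc30a10, and the importers Slc39a12 and Slc39a14. All 7 passed the filter on low values, which kept 18413 genes.

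The control mice were C57BL/6J without floxed alleles, and the Sox9 KO mice were Sox9fl/fl, with 3 males and 3 libraries in each group and 1 library per mouse. Both groups, controls included, had received AAV-GFAP-iCre-P2a-TurboRFP in the olfactory bulb 4 weeks earlier, so that a GFAP promoter drove Cre recombinase and the red fluorescent protein TurboRFP in the infected cells. TurboRFP-positive cells, labelled as olfactory bulb astrocytes, were sorted for total RNA. The labels give the strain of all 6 samples as C57BL/6. The paper lists the floxed line under a strain name other than C57BL/6J. Strain origin and loss of Sox9 therefore cannot be told apart here.

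Metallothioneins are small cytosolic proteins whose cysteines bind zinc and copper, and Mt1 and Mt2 are induced by zinc through the metal-responsive transcription factor Mtf1. Slc30 proteins (ZnT) move zinc out of the cytosol, across the plasma membrane or into vesicles, and Slc39 proteins (ZIP) move zinc into the cytosol. Some members also carry other metals. Slc30a10 is best known as a manganese exporter, and Slc39a14 and Slc39a8 take up manganese as well as zinc. In the brain, astrocytes are a main site of Mt1 and Mt2 expression, and Mt3 is the brain-enriched metallothionein.

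The 3 metallothioneins are neighbours on mouse chromosome 8 in mm10 (GRCm38), where the cluster from Mt4 to Mt1 spans 43131 bp (94137197 to 94180327). Mt3 lies at 94152607 to 94154146, Mt2 at 94172664 to 94173568 and Mt1 at 94179082 to 94180327, all on the plus strand, and each coding sequence is split over 3 exons. Their coding sequences in the GENCODE annotation of this build are shown because the cysteine codons, in capitals, are what makes these proteins metal binders and because the reads of such similar genes have to be told apart.
Mt1: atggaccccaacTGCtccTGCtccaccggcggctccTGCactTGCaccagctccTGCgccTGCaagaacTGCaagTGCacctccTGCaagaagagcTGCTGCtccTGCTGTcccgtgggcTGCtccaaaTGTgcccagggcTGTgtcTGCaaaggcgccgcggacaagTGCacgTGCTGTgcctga
Mt2: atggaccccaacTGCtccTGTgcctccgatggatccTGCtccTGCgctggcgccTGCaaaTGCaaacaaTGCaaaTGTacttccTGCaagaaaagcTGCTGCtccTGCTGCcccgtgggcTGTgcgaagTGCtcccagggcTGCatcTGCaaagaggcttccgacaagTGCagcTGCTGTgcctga
Mt3: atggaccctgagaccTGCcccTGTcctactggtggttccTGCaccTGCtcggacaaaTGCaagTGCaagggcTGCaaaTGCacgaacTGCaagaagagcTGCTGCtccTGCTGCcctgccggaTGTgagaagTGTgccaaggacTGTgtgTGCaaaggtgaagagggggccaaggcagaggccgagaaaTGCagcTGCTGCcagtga
Each of the 3 reading frames holds 20 cysteine codons, out of 61 codons in Mt1 and Mt2 and out of 68 in Mt3. Mt1 and Mt2 were identical at 79.6% of aligned coding bases, Mt1 and Mt3 at 66.2%, and Mt2 and Mt3 at 67.6%. The longest run of bases shared between transcripts was 20 bp for Mt1 and Mt2 and for Mt2 and Mt3, and 27 bp for Mt1 and Mt3. An antisense gene in the annotation, Gm45774, overlaps Mt2 and has no values here. How the authors treated reads that map to several places is not stated in the sources used here.

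Zinc induction acts through the metal response element, searched here as TGCACNC and TGCGCNC on both strands. A window of 300 bases was found for 6 of the 7 genes (all but Slc39a14). It covers 250 bases before and 50 after 1 start site per gene (RefSeq, GRCm38.p6). In it Mt2 held 4 matches, Mt1 and Slc30a10 3 each, Slc30a1 2, Mt3 1 and Slc39a12 0. The site used lies inside the RefSeq gene for Mt1 (94179089, gene start 94178883), Slc30a1 (191906781, 191906697) and Slc39a12 (14388398, 14388316). For Mt2 the site used, 94172618, lies before the GENCODE start of 94172664. Matches around other start sites were not counted. The coding sequence starts at 94179311 in Mt1 and at 94172848 in Mt2, both beyond the 50 bases searched after the site. The bases between were not searched, so the counts describe these windows and do not rank the promoters. Of 32851 promoters of the same length, 25.7% held at least 1 match, 7.11% at least 2, 1.97% at least 3 and 0.517% at least 4. The 250 bases before the site used are shown for Mt2 (chr8:94172368-94172617, plus strand) and Slc30a10 (chr1:185454598-185454847, plus strand). Matches are in capitals, and these genes were picked because they are among the members with the most matches.
Mt2: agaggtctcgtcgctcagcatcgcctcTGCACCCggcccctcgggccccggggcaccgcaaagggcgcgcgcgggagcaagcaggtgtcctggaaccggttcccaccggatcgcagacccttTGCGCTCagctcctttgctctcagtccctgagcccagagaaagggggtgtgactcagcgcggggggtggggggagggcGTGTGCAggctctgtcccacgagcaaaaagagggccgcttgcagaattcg
Slc30a10: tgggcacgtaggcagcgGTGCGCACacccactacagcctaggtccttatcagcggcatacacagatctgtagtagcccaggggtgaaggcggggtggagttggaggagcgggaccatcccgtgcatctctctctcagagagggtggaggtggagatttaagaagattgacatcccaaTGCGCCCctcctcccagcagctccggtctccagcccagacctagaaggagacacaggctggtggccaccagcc
Of the 4 matches of Mt2, 3 lie in these bases. The stretch of 8 capitals in Slc30a10 is a palindrome that was counted on both strands, so that the 3 matches there lie at fewer separate places. A match is a description of these letters only, and binding was not measured.

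Each library gave between 18242129 and 86906527 reads on genes, and the unit used throughout is the normalized count, the reads of a gene divided by the size factor of its library. A read was worth between 0.395 and 1.58 normalized counts, far below the levels of all 7 genes. Sox9 itself was 5185, 6562 and 4921 in the controls, as opposed to 52.6, 64.3 and 57.7 in the KO libraries. A gene was called changed at an adjusted p (limma, Benjamini-Hochberg over all genes tested) of at most 0.05 and a change of at least 1.5-fold. Across all genes 28.8% were called lower and 22.2% higher in the KO, or 5299 and 4090 genes. The split was 6191 lower to 2936 higher when libraries were scaled to equal totals, 6597 to 2630 when the ribosomal gene Rn45s was also left out, and 4117 to 5342 after quantile normalization.

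The sorted cells were labelled as astrocytes, but markers of several cell types were detected and moved with the groups. All 16 astrocyte markers fell, from a summed 620546 to 695082 in the controls to 69196 to 82412 in the KO, and none was at 0. Of 16 microglia and macrophage markers 15 rose and 1 fell, from sums of 207915 to 235097 to sums of 725866 to 834440. Neuronal markers fell in 12 of 14 (sums of 21299 to 28824 against 3195 to 5406) and oligodendrocyte lineage markers in 10 of 10 (42650.5 to 66965 against 15876 to 25332). Olfactory ensheathing markers fell in 7 of 10 (42142 to 52213 against 11041 to 17574), and endothelial and mural markers fell in 5 and rose in 2 of 10 (3698 to 4609 against 2624 to 2944). Of 7 ependymal and choroid plexus markers 1 fell (782 to 1131 against 130 to 170). No marker of these 7 lists was at 0 in all libraries. The part of these shifts in the changes of the zinc genes was not tested.

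Of the 7 genes, 6 fell in the Sox9 KO, 0 rose, and Slc30a1 was not called. For the same 6 genes every KO library lay below every control library, a pattern that 34.7% of all genes tested showed. The median log2 fold change of the 7 genes was -2.97, beside -0.07 over all genes tested. All 6 were also called lower in the quasi-likelihood test of edgeR and in DESeq2 on whole reads, which called 27.2% and 27.7% of all genes lower. In sorted bulk RNA, fewer cells that express a gene and less RNA per cell cannot be told apart, which holds for each result that follows.

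**Figure D1:**
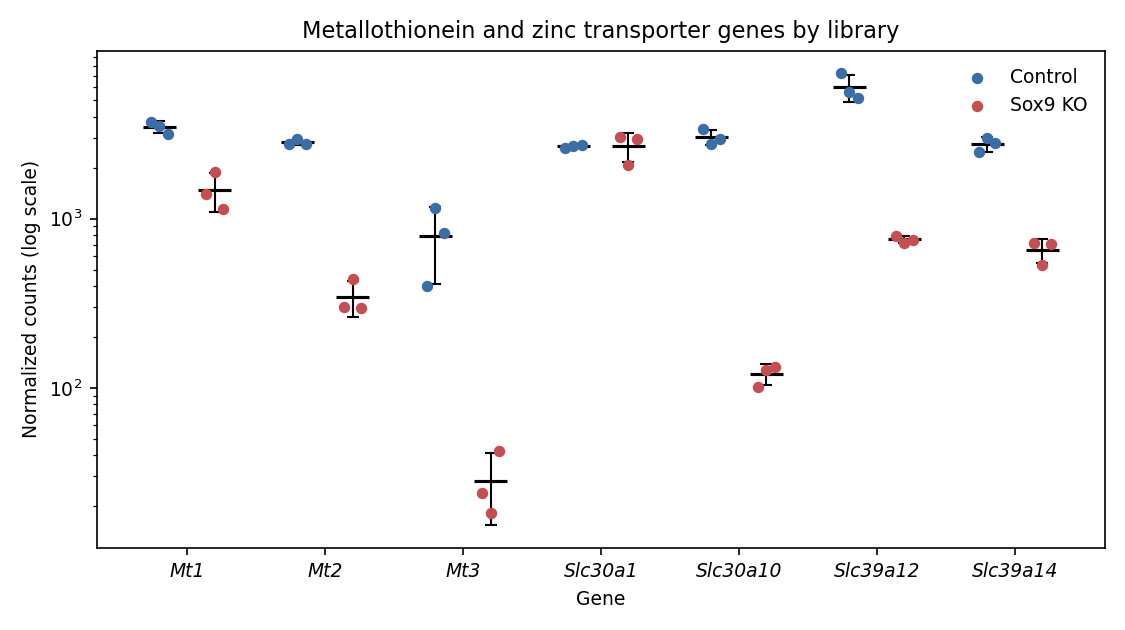
Normalized counts (log scale) of the 7 genes in each library, with control in blue and Sox9 KO in red, where the long line is the mean and the error bars are the SD of 3 libraries. The groups are apart for every gene but Slc30a1, and the 3 control points of Mt3 are spread from 397 to 1158.

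Of the metallothioneins, Mt2 was the most even among controls. Mt2, 1 of the widely expressed zinc-induced forms, measured 2753, 2950 and 2752 normalized counts in the control libraries and 299.8, 441 and 296 in the KO libraries. The KO libraries all lay far below the controls, with the second KO library the highest of its group. The means were 2818.5 ± 114 and 346 ± 82.8 (SD, n = 3 each), an 8.15-fold lower level in the KO, with a log2 fold change of -3.05 (SE 0.15, 95% confidence interval -3.39 to -2.71, limma adjusted p = 8.2e-08).

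Mt1, the neighbour of Mt2 and regulated by the same factor, measured 3740, 3507 and 3179 in the control libraries against 1397, 1886 and 1142 in the KO. The groups did not overlap, but the gap was smaller than for Mt2. Mean levels were 3475 ± 282 and 1475 ± 378 (SD, n = 3 each), a 2.36-fold lower level, with a log2 fold change of -1.26 (SE 0.16, interval -1.62 to -0.90, limma adjusted p = 6.3e-05). Of all genes tested, 25.0% had a more negative log2 fold change than Mt1 and 6.64% a more negative one than Mt2.

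Mt3, the metallothionein enriched in brain, had the most negative log2 fold change of the 7 genes, with an interval that overlaps that of Slc30a10. Its normalized counts were 397, 1158 and 816 in the control libraries against 23.8, 18.2 and 42.5 in the KO. The controls differed 2.91-fold among themselves, the widest spread of the 7 genes (coefficient of variation 48.2%), and still each stood above the KO libraries. The KO values rest on 24, 46 and 28 reads. The means of 790.5 ± 381 and 28.2 ± 12.8 (SD, n = 3 each) differed 28.1-fold, with a log2 fold change of -4.72 (SE 0.41, interval -5.63 to -3.81, limma adjusted p = 3.5e-06).

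The 3 metallothioneins thus fell by unequal amounts, which was tested on ratios within each library, since these do not depend on how a library is scaled. The ratio of Mt1 to Mt2 normalized counts was 1.36, 1.19 and 1.16 in the control libraries against 4.66, 4.27 and 3.86 in the KO. It was higher in every KO library, by 1.78 on the log2 scale. The ratio of Mt3 to the sum of Mt1 and Mt2 was 0.0612, 0.179 and 0.138 in the control libraries against 0.0140, 0.00780 and 0.0296 in the KO, a difference of -2.90 on the log2 scale with no overlap. Both differences had an exact two-sided permutation p of 0.10, the smallest that 3 against 3 libraries can give. All 4 ratios computed had this p, so that adjustment over them could only return 0.10.

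Per kb of exonic sequence, the summed metallothionein level was 8324 ± 515 in the controls and 1798 ± 429 in the KO (normalized counts per kb, SD, n = 3 each). Mt1 made up 33.6% ± 3.19 of that sum in controls and 65.6% ± 2.59 in the KO. Mt2 went from 57.6% ± 1.20 to 32.7% ± 1.83, and Mt3 from 8.79% ± 3.83 to 1.61% ± 1.02. The fourth metallothionein, Mt4, known from stratified epithelia, was listed at 0 in all 6 libraries. These shares depend on the gene length used. With the length of 1 transcript per gene (549 bp for Mt1, 511 bp for Mt2 and 536 bp for Mt3), an alternative chosen after seeing the data, Mt1 and not Mt2 was the larger share in the controls, at 47.5% beside 41.4%. In the KO Mt1 was the larger share either way, at 78.7% with these lengths.

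**Figure D2:**
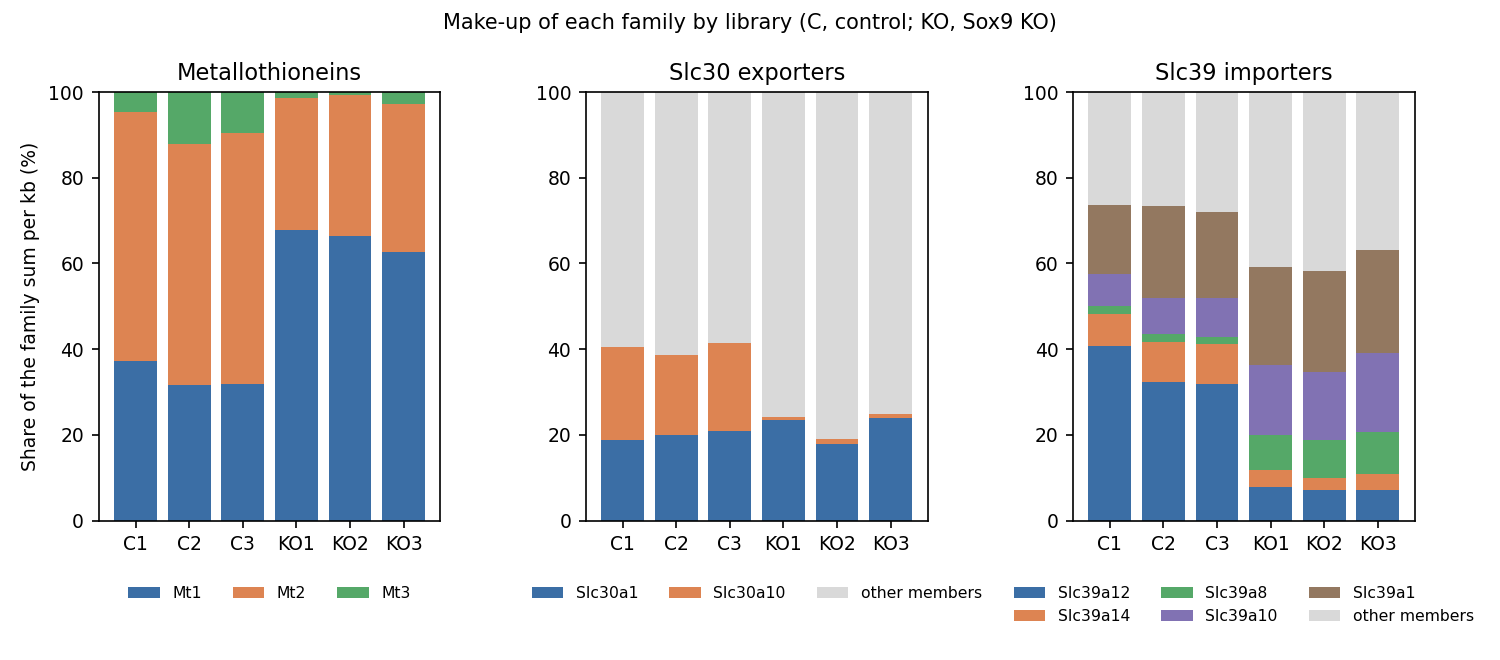
Share of each gene in its family's summed normalized counts per kb (percent) in the 3 control (C1 to C3) and 3 Sox9 KO (KO1 to KO3) libraries, with stacked colours for the genes named in each legend. Mt1 goes from 33.6% to 65.6% of the metallothioneins, Slc30a10 from 20.3% to 0.887% of Slc30 and Slc39a12 from 35.0% to 7.46% of Slc39.

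The exporters parted. Slc30a10 (mm10 chromosome 1, 185454848 to 185468762, plus strand) measured 3393, 2764 and 2940 normalized counts in the control libraries against 101.3, 128 and 132 in the KO. No KO library came near a control, and the KO values rest on 102, 325 and 87 reads. Its means of 3032 ± 324 and 121 ± 16.8 (SD, n = 3 each) differed 25.1-fold, with a log2 fold change of -4.65 (SE 0.14, interval -4.97 to -4.32, limma adjusted p = 8.3e-09). Only 0.815% of the genes tested had a more negative log2 fold change. A long non-coding gene on the opposite strand, Gm2061, overlaps Slc30a10 and averaged 74.4 in the controls and 9.82 in the KO. Whether counting used the strand is not stated in the sources used here, so reads of the overlap cannot be told apart.

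Slc30a1 (chromosome 1, 191906767 to 191913247, plus strand) encodes the plasma membrane zinc exporter, a textbook target of Mtf1. It measured 2601, 2675 and 2732 in the control libraries against 3037, 2080 and 2949 in the KO. The groups overlapped, and the KO libraries were spread on both sides of the tight controls. The means were 2669 ± 65.4 and 2689 ± 529 (SD, n = 3 each), with a log2 fold change of -0.01 (SE 0.14, interval -0.32 to 0.30, limma adjusted p = 0.96). Its sign turned with the setting, from -0.34 with equal totals without Rn45s to 0.17 without KO replicate 2, and it was called in none. The interval leaves room for a change in either direction that is smaller than 1.5-fold. An antisense gene that overlaps it, 1700034H15Rik, averaged 17.8 in the controls and 45.9 in the KO.

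The ratio of Slc30a10 to Slc30a1 normalized counts was 1.30, 1.03 and 1.08 in the control libraries against 0.0333, 0.0617 and 0.0448 in the KO. The ratio fell by 4.64 on the log2 scale, with no overlap (exact permutation p = 0.10, adjusted 0.10). Per kb, Slc30a10 made up 20.3% ± 1.65 of the summed Slc30 level in controls and 0.887% ± 0.160 in the KO. Slc30a1 made up 19.9% ± 1.16 and 21.8% ± 3.29. The summed Slc30 level itself was 2558 ± 88.1 per kb in controls and 2344 ± 131 in the KO (SD, n = 3 each).

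Both importers fell. Slc39a12 (chromosome 2, 14388316 to 14494977, plus strand), is a zinc importer with high expression in brain. Its normalized counts were 7215, 5583 and 5126 in the control libraries against 793, 716 and 752 in the KO. The KO libraries were tight and well below the lowest control. The means of 5975 ± 1098 and 754 ± 38.8 (SD, n = 3 each) differed 7.93-fold, with a log2 fold change of -2.97 (SE 0.13, interval -3.26 to -2.69, limma adjusted p = 3.5e-08).

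Slc39a14 (chromosome 14, 70303469 to 70351425, minus strand) takes up zinc, manganese and iron. It measured 2473, 3006 and 2791 in the control libraries against 719.7, 533 and 705 in the KO. The groups were apart, and the second library was the highest of the controls and the lowest of the KO. Its means of 2757 ± 268 and 653 ± 104 (SD, n = 3 each) differed 4.22-fold, with a log2 fold change of -2.09 (SE 0.14, interval -2.39 to -1.78, limma adjusted p = 4.4e-07). The ratio of Slc39a14 to Slc39a12 was 0.343, 0.538 and 0.545 in the control libraries against 0.907, 0.745 and 0.937 in the KO, higher by 0.89 on the log2 scale (exact permutation p = 0.10, adjusted 0.10).

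The summed Slc39 level per kb was 6163 ± 306 in controls and 3665 ± 102 in the KO (SD, n = 3 each). Slc39a12 alone was 35.0% ± 4.95 of it in controls and 7.46% ± 0.428 in the KO, and Slc39a14 went from 8.62% ± 1.06 to 3.42% ± 0.508. The shares of the importers Slc39a10 and Slc39a1 were 8.31% and 19.2% in controls and 16.8% and 23.4% in the KO. Slc39a8 went from 1.81% ± 0.115 to 8.99% ± 0.770.

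Levels of different genes were compared only per kb. In the controls the order was Mt2 (4793 ± 194), Mt1 (2789 ± 226), Slc39a12 (2166 ± 398), Mt3 (742 ± 357), Slc39a14 (530 ± 51.6), Slc30a10 (520 ± 55.6) and Slc30a1 (509 ± 12.5), as normalized counts per kb of the union of exons (SD, n = 3). The libraries of Mt1 and Slc39a12 overlapped, and those of Mt3, Slc39a14, Slc30a10 and Slc30a1 overlapped among themselves. Mt2 stood higher than 98.9% of the 17660 genes with a known length, and Slc30a1 higher than 83.9%. With 1 transcript per gene, Mt1 (6330 ± 513) came before Mt2 (5516 ± 223).

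In the KO the order per kb was Mt1 (1184 ± 303), Mt2 (588 ± 141), Slc30a1 (513 ± 100.8), Slc39a12 (273 ± 14.1), Slc39a14 (125 ± 19.9), Mt3 (26.4 ± 11.97) and Slc30a10 (20.7 ± 2.89). Mt2 and Slc30a1 overlapped, as did Mt3 and Slc30a10, and the other neighbours were apart. Slc30a1 came last in the controls, but only Mt1 and Mt2 stood above it in the KO. Mt1 was still higher than 92.4% of all genes, whereas Slc30a10 was higher than 33.4% and Mt3 than 36.2%.

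The other zinc genes were counted as well. Their share was not compared with that of the 7 members, which were chosen with earlier results of these data known. Of the 21 other metallothionein, Slc30 and Slc39 genes, 19 were tested. Of these 3 fell, 3 rose and 13 were not called, beside 28.8% of all genes lower and 22.2% higher. That even split rested on the scaling: it was 6 lower to 1 higher with libraries scaled to equal totals, 7 to 1 when Rn45s was also left out, 2 to 3 after quantile normalization, 1 to 4 in edgeR and 2 to 2 in DESeq2. Their median log2 fold change was -0.07, the same as over all genes. Over the whole Slc30 family 2 of 9 tested genes fell and 1 rose, and over the Slc39 family 4 of 14 fell and 2 rose, beside the 28.8% and 22.2% of all genes. With equal totals 3 Slc30 genes were called lower and 0 higher, and 6 Slc39 genes lower and 1 higher.

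Slc39a8, an importer of zinc and manganese, rose most of the zinc genes. It measured 485, 480 and 397 normalized counts in the control libraries against 1221, 1296 and 1512 in the KO. Every KO library was above every control, with a log2 fold change of 1.56 (SE 0.13, limma adjusted p = 2.7e-06). Slc39a8 thus went up in the same libraries in which the importer Slc39a14 and the exporter Slc30a10 went down.

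The other calls were smaller or less firm. Slc39a6, a plasma membrane importer, fell by 0.64 on the log2 scale (limma adjusted p = 0.00014), from 1847 ± 51.6 to 1187 ± 49.4 (SD, n = 3 each). That change was just under 1.5-fold in edgeR. Slc39a2 fell by 1.30 (limma adjusted p = 0.014) at a low level, from 41.8 to 16.7, a call lost under quantile normalization. Slc30a3, which loads zinc into synaptic vesicles of neurons, averaged 24.4 in controls and 7.56 in the KO with overlapping libraries (log2 fold change -1.58, limma adjusted p = 0.036), and its adjusted p was 0.058 in edgeR and 0.054 in DESeq2. After quantile normalization the log2 fold change of Slc30a3 was -0.82 (limma adjusted p = 0.23). Slc30a7, a Golgi exporter, and Slc39a11 rose by 0.59 each (limma adjusted p = 0.0012 and 0.0074), just past the fold threshold. Neither was called under either scaling to equal totals, Slc30a7 also not after quantile normalization, in DESeq2, or without control replicate 3 or KO replicate 1 or 2, and Slc39a11 not without control replicate 1 or KO replicate 1 or 3.

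Slc30a5, also of the early secretory pathway, differed by 0.54 on the log2 scale (limma adjusted p = 0.00095) and missed the fold threshold, which it passed in edgeR and without control replicate 3. The fold threshold was also missed by Slc30a6 (-0.47), Slc39a1 (-0.45) and Slc39a10 (0.27), with limma adjusted p-values of 0.020, 0.0045 and 0.042. Under the scalings to equal totals without and with Rn45s, Slc30a6 (-0.79 and -0.71) and Slc39a1 (-0.78 and -0.69) were called lower, and Slc39a1 also after quantile normalization (-0.63). Slc30a2, Slc30a4, Slc30a9, Slc39a3, Slc39a4, Slc39a5, Slc39a7, Slc39a9 and Slc39a13 did not pass the p threshold. Of these, Slc39a3 was called lower under both scalings to equal totals (adjusted p = 0.0079 and 0.0042 in limma), Slc39a13 when Rn45s was also left out, Slc30a2 without KO replicate 1, and Slc39a4 was called higher after quantile normalization. Slc30a8, the exporter of pancreatic insulin granules, was listed at 0 in all 6 libraries.

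**Figure D3:**
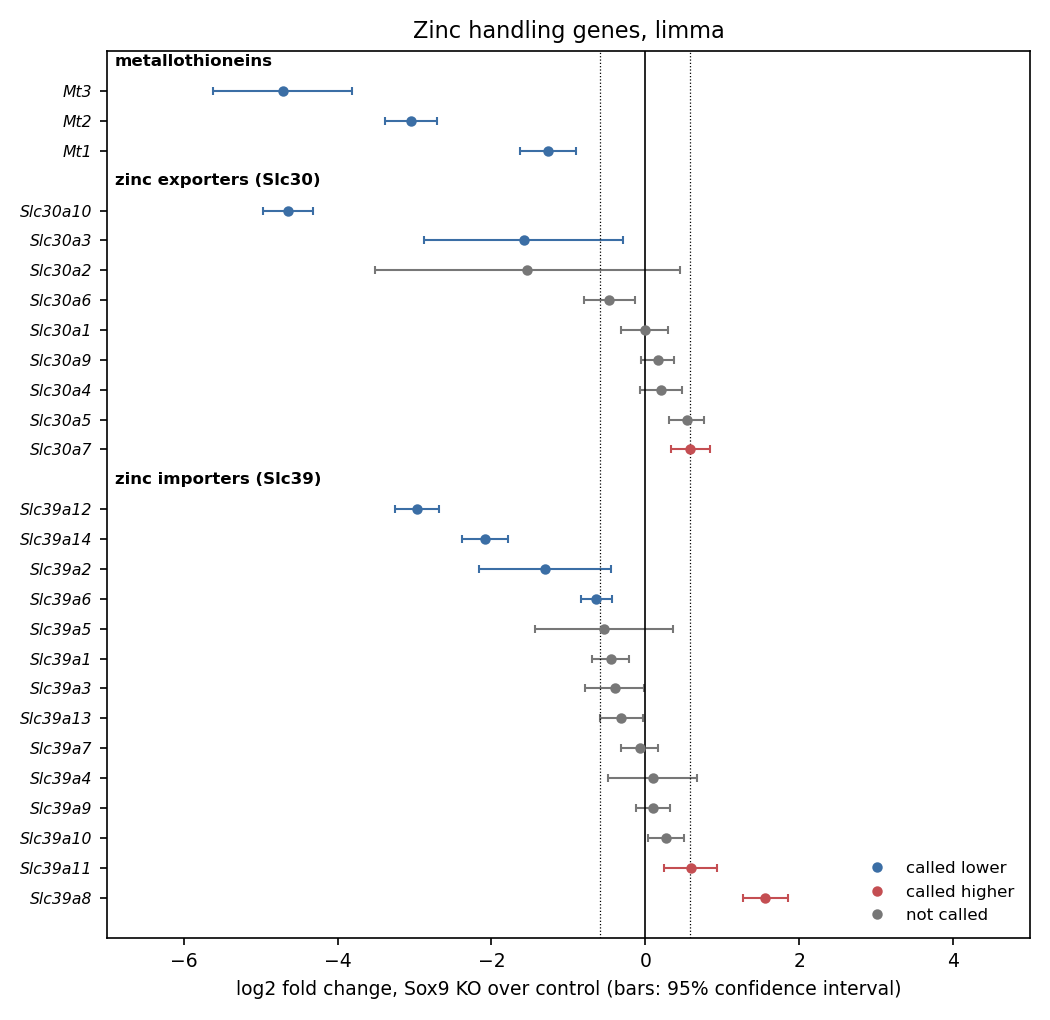
Log2 fold change (Sox9 KO over control, limma) with its 95% confidence interval for the 3 metallothioneins, 9 Slc30 and 14 Slc39 genes tested, ordered within each family, with dotted lines at 1.5-fold. Mt3 at -4.72 and Slc30a10 at -4.65 lie farthest to the left, Slc30a1 sits at -0.01 and Slc39a8 at 1.56 farthest to the right.

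Mtf1, the zinc sensor that drives Mt1 and Mt2 transcription, was 1421 ± 219 in controls and 1472 ± 45.0 in the KO (SD, n = 3 each), with overlapping libraries. Its log2 fold change was 0.06 (SE 0.12, interval -0.20 to 0.33, limma adjusted p = 0.67). Mtf2, which shares the name but acts with Polycomb proteins, differed by 0.57 on the log2 scale (limma adjusted p = 0.00076), short of 1.5-fold.

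Metallothioneins also bind copper, and Mt1 and Mt2 respond to glucocorticoids and oxidative stress, so gene lists for these were counted. Of 11 copper genes tested, 3 fell and 3 rose, with a median log2 fold change of 0.40, shares near the 28.8% lower and 22.2% higher of all genes. After quantile normalization it was 1 lower and 6 higher. The copper ferroxidase ceruloplasmin, Cp, rose 5.92-fold, from 1208 ± 130 to 7150 ± 1506 (SD, n = 3 each, limma adjusted p = 2.4e-07). The copper-exporting ATPase Atp7a rose by 1.54 on the log2 scale (limma adjusted p = 1.6e-07), and the copper-zinc superoxide dismutase Sod1 fell by 0.94 (limma adjusted p = 0.00010). The copper importer Slc31a1 differed by 0.43 (limma adjusted p = 0.011), under 1.5-fold. The copper genes named so far were those of highest mean in the list. The remaining calls were Slc31a2 (1.81) higher, and Atp7b (-2.05) and Ccs (-0.84) lower, with limma adjusted p at most 0.0055.

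Of 15 iron and manganese genes, 3 fell and 6 rose (median 0.36), beside 28.8% and 22.2% of all genes. The ferritin light chain Ftl1 rose by 1.30 on the log2 scale (limma adjusted p = 8.7e-06). Ferritin heavy chain Fth1 rose by 0.75, transferrin Trf by 0.80 and the Golgi calcium and manganese pump Atp2c1 by 0.75 (limma adjusted p at most 0.0018), but these 3 lost their call under each of the scalings to equal totals and under quantile normalization. The genes named so far were those of highest mean in the list. The 3 called lower were Steap3 (-2.26), Heph (-1.80) and Tfrc (-1.61), with limma adjusted p at most 0.00021. Slc11a1 (2.74) and Slc40a1 (0.73) were the remaining genes called higher. With equal totals only 2 genes of the list were called higher.

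All 12 glucocorticoid response genes were called, 5 lower and 7 higher (median 0.67), beside 28.8% and 22.2% of all genes. The receptor gene Nr3c1 rose by 1.02 on the log2 scale, the clock gene Per1 by 1.41, the kinase Sgk1 by 0.71 and the EGF receptor inhibitor Errfi1 by 0.64 (limma adjusted p at most 0.00076). Sgk1 and Errfi1 lost their call under the scalings to equal totals and under quantile normalization. The genes named so far were those of highest mean in the list. The 5 called lower were Pdk4 (-3.37), Mfsd2a (-2.91), Klf9 (-2.89), Zbtb16 (-2.82) and Ddit4 (-2.73), with limma adjusted p at most 0.00014. Fkbp5 (1.72), Tsc22d3 (1.54) and Sult1a1 (0.96) were the remaining genes called higher. The list as a whole did not move in a single direction.

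Of 12 oxidative stress genes, 8 fell and 1 rose (median -1.17), beside the 28.8% and 22.2% of all genes. The glutathione transferase Gstm1, abundant in astrocytes, fell 11.5-fold, from 22262 ± 1179 to 1932 ± 392 (SD, n = 3 each, limma adjusted p = 1.8e-08). Haem oxygenase Hmox1 fell by 1.30 on the log2 scale (limma adjusted p = 6.6e-05). Nfe2l2, the transcription factor of this response, rose by 0.95 (limma adjusted p = 2.3e-05), a call lost under quantile normalization. Catalase, Cat, differed by 0.16 (limma adjusted p = 0.24).

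**Figure D4:**
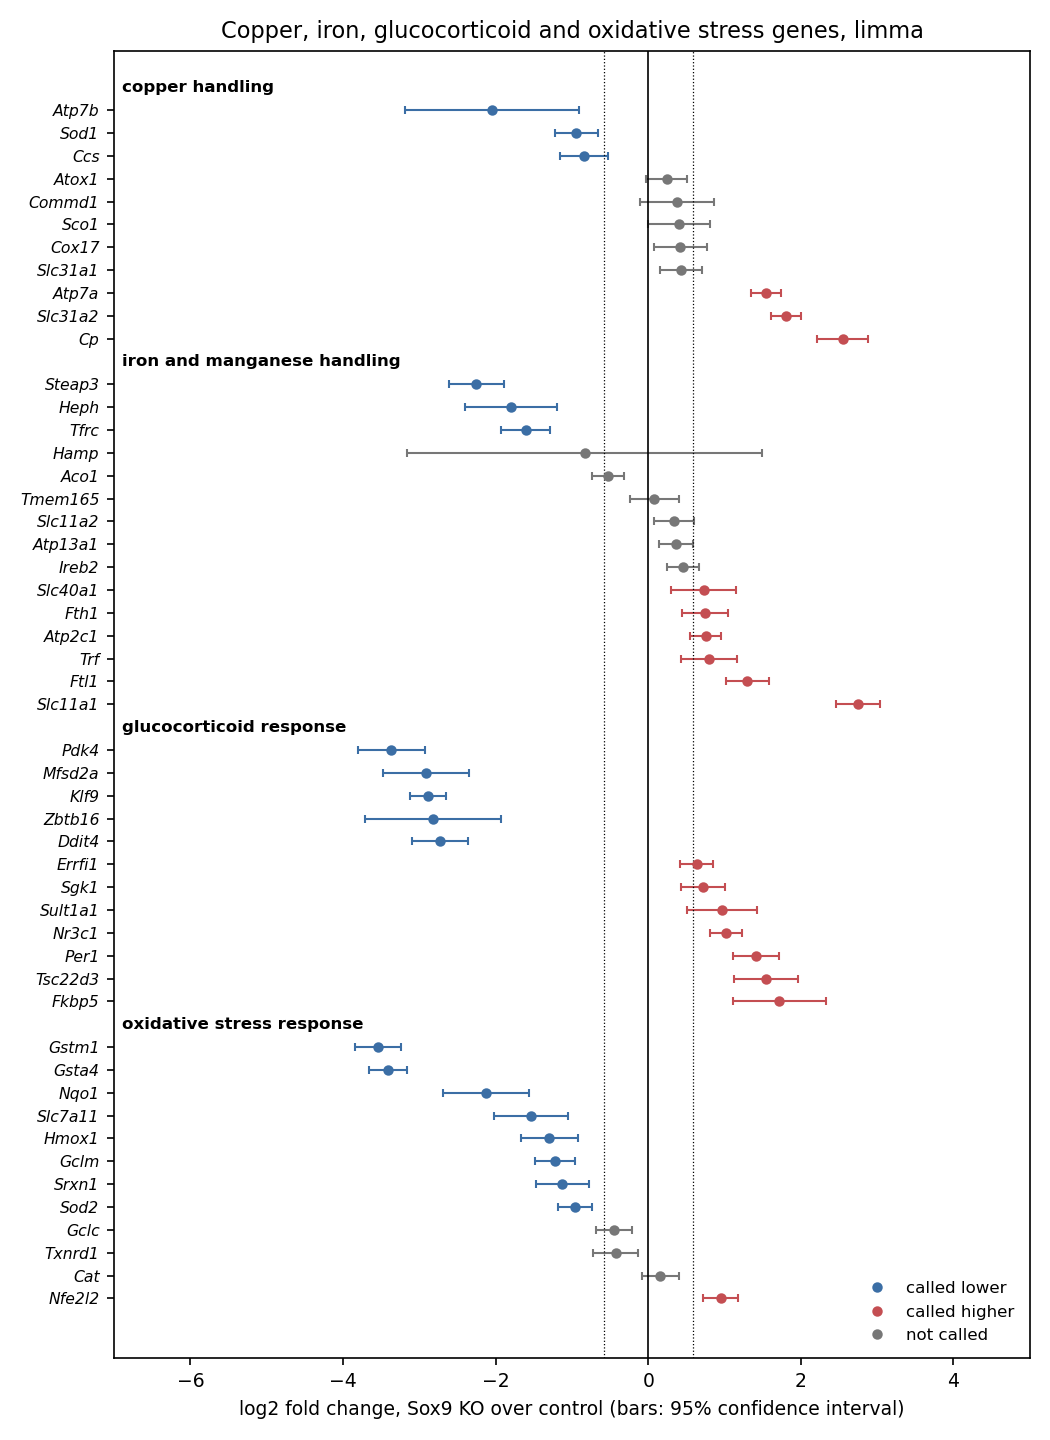
Log2 fold change (Sox9 KO over control, limma) with its 95% confidence interval for the 11 copper, 15 iron and manganese, 12 glucocorticoid and 12 oxidative stress genes tested, with dotted lines at 1.5-fold. Called genes point both ways in the first 3 lists, with 3 to 3, 3 to 6 and 5 to 7 lower to higher, and 8 to 1 in the oxidative stress list.

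Each gene was also set against the astrocyte markers of its own library. The geometric mean of the 16 markers fell by 3.68 on the log2 scale. Relative to it, Mt1 was higher in the KO by 2.41, Mt2 by 0.63, Slc39a12 by 0.71, Slc39a14 by 1.59 and Slc30a1 by 3.67, and Slc30a10 differed by -0.97. In these 6 genes the libraries of the groups did not overlap (exact two-sided permutation p = 0.10, adjusted over the 7 genes 0.117). Mt3 differed by -1.04 with overlapping libraries (exact permutation p = 0.20, adjusted 0.20). These tests cannot go below 0.10 with 3 against 3 libraries. A gene that fell less than the markers comes out as higher on this ratio, as Slc30a1 does with its log2 fold change of -0.01. The ratio is not a level per astrocyte, since markers of other cell types were also detected in these libraries.

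Among the 16 markers, whose log2 fold changes ran from -5.25 to -1.07, 15 fell more than Mt1 and Slc39a14, and 13 fell more than Mt2 and Slc39a12. Only 1 fell more than Mt3 or Slc30a10. By point estimate, Mt3 and Slc30a10 thus lay at the far end of the astrocyte markers, and Mt1 and Slc39a14 at the near end. For Mt3 the interval of -5.63 to -3.81 includes the median of the markers, -3.84.

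**Figure D5:**
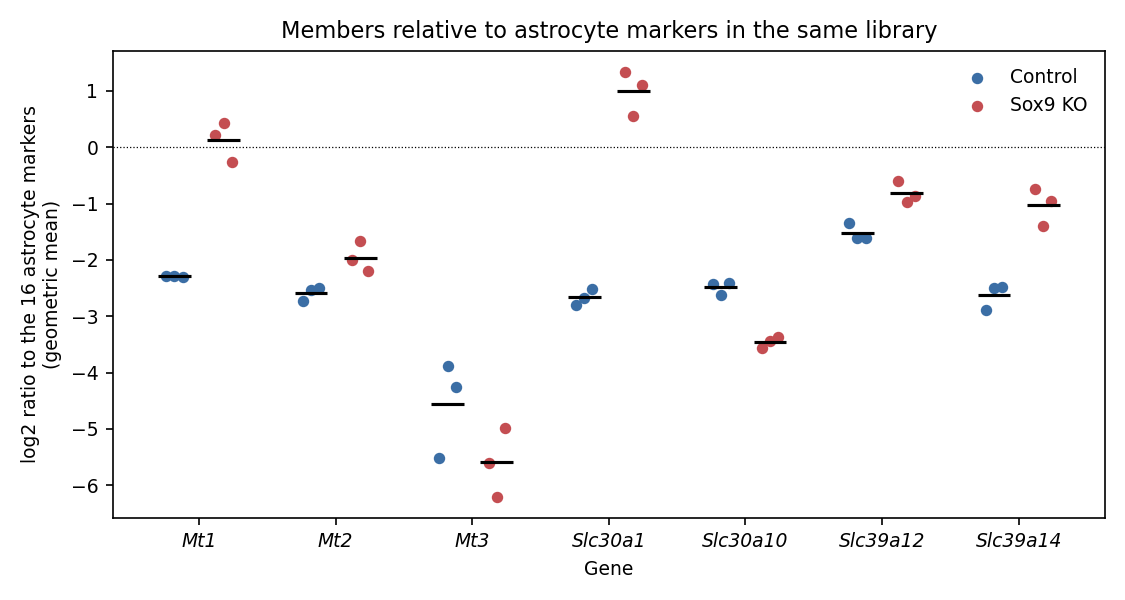
Log2 ratio of each gene to the geometric mean of the 16 astrocyte markers in the same library, with control in blue, Sox9 KO in red and a line at the mean of 3 libraries. The KO points are above the controls for Mt1, Mt2, Slc30a1, Slc39a12 and Slc39a14, below them for Slc30a10, and overlap them for Mt3.

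The genes whose pattern over the 6 libraries was most like each member were found among 11925 genes with a mean of at least 100, by the root mean square difference of log2 values centred on the control mean. For Mt1 these were Atg9a (0.082) and Evi5l (0.089), and for Mt2 Kif1a (0.059) and Lynx1 (0.061). Mt3 had no close match, with Nes at 0.27 and 2810459M11Rik at 0.42. Slc30a10 was nearest to Pm20d1 (0.090) and Efhd1 (0.093), and Slc30a1 to Fastkd3 (0.061) and 9430016H08Rik (0.066). Slc39a12 was nearest to Inf2 (0.11) and Abtb2 (0.12), and Slc39a14 to Tub (0.084) and Rbms3 (0.10). These are descriptions over 6 libraries, in which a gene with a group difference of similar size comes out as near.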

How the data were processed

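RNA-seq was performed on TurboRFP-positive olfactory bulb cells of 3 control and 3 Sox9 KO mice, grouped by the labels. The authors mapped reads to mm10 with STAR 2.5.0a, built a count matrix with GenomicAlignments, and derived normalized values in DESeq2 1.20.0. Their methods mention a depth normalization of the alignments with samtools. The gene annotation and the strand setting are not stated in the sources used here. The deposited signal values carry the name RPM, but within 0.01 read 100% of them were whole multiples of a single step in each library, so they are read counts over a size factor. They are called normalized counts here. Every deposited column was used (0 left over).

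The groups were compared with limma 3.58.1 (R 4.3.3) for the 18413 genes whose mean was 1 or more, leaving out 6008. Values were log2(normalized count + 1), the prior variance followed a trend on the mean, and p-values were two-sided with Benjamini-Hochberg adjustment over all genes tested. A fold change on this scale understates the change of genes with low counts. Whole reads were also tested with edgeR 4.0.16 (quasi-likelihood, TMM) and DESeq2 1.42.0. Alternatives were pseudocounts of 0.1 and 5, no filter or a mean of at least 10, scaling to equal totals with and without Rn45s, quantile normalization, limma without the trend, a replicate block, and leaving out each library. The fitting code was tested on simulated data.

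Exonic lengths and coordinates are from GENCODE M21 (GRCm38), and promoters from RefSeq. The members and gene lists were chosen with earlier results of these data known. Named were the 7 members, all other metallothionein, Slc30 and Slc39 genes, and Mtf1 and Mtf2. Of each other list the 4 genes of highest mean were named. In the copper, iron and manganese, and glucocorticoid lists the other called genes were named as well, unlike in the oxidative stress list. The 2 genes nearest in pattern to each member, Sox9, and genes overlapping a member were also named.

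Each library is 1 mouse, so that the tests set group differences against the spread between mice and library preparations. In limma the variance of each gene was also drawn toward the trend over all genes tested. Depth was 18242129 to 86906527 reads on genes, and Rn45s took 14.2% to 22.4% of them.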

Additional observations from a re-analysis of the deposited data

How the results depend on the processing

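The 6 members that fell were called lower under all 17 alternatives, and none was called higher in any. Without 1 library at a time, 6 members were always called lower, with log2 fold changes of -1.46 to -1.09 for Mt1, -3.24 to -2.95 for Mt2, -5.15 to -4.38 for Mt3, -4.72 to -4.53 for Slc30a10, -3.07 to -2.83 for Slc39a12 and -2.16 to -1.95 for Slc39a14. Slc30a1 was called in none. Its log2 fold change ran from -0.11 without the first KO library to 0.17 without the second and down to -0.34 (adjusted p = 0.047) with equal totals without Rn45s, and its sign was that of the report in 13 of 17. The adjusted p of the members that fell was at most 0.0040 in any alternative.

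Scaling shifted all genes: the median log2 fold change over all genes was -0.07, and it was -0.29 with equal totals, -0.37 with equal totals without Rn45s and 0.19 after quantile normalization. Over the 8 gene lists together 28 genes were called lower and 20 higher, where all 18413 genes tested gave 5299 and 4090. With equal totals, with or without Rn45s, 12 genes of the lists were called higher. Among all genes the number called higher was then 2936 with Rn45s and 2630 without it. Control means moved by more than their SD under equal totals and quantile normalization for Mt1 (3793 and 3869), Mt2 (3079 and 3085) and Slc30a1 (2919 and 2915). In the KO the mean of Slc30a10 was 156 after quantile normalization, and that of Slc39a12 was 695 with equal totals. Slc30a3 kept its call in neither edgeR nor DESeq2, nor after quantile normalization (-0.82), nor without control replicate 2 or 3 or KO replicate 1 or 3. With the length of 1 transcript, chosen after seeing the data, levels per kb in the controls were 6330 for Mt1, 5516 for Mt2 and 1475 for Mt3.

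The replicate numbers were not found to pair the libraries: deviations of same-numbered libraries from their group means correlated at -0.05, -0.01 and -0.01 across genes. With the replicate block 6 members were called lower and 0 higher, 28 and 20 genes of the lists, and 5227 lower and 4048 higher of all genes, beside 5299 and 4090 without it.

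With 3 libraries a group, the exact tests of ratios cannot pass 0.05. The KO counts of Mt3 rest on fewer than 50 reads a library, and levels between genes rest on exon lengths that need not be those of the transcripts present.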
